A study of Brassica rapa with 12 samples.

Results

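The 9 genes described here are the *Brassica rapa* homologs of the Arabidopsis genes CYP81F1 to CYP81F4, given by a fixed list of gene IDs that used no measured value, out of 42186 features in the count tables. All 9 were present in the tables, and 8 of them passed the filter on low counts that left 31239 tested features. Whole 1-week-old seedlings of the lines Chiifu, a Chinese cabbage line, and LP08 were grown either with 16 h of light and 8 h of dark (light seedlings) or with 24 h of dark (dark seedlings). Each of the 4 combinations of line and treatment had 3 libraries of polyadenylated RNA, and no mutant, transgene or other agent is named for any of them. The study is about glucosinolate contents in vegetable and oilseed forms of *B. rapa*, and its labels do not give the form of LP08. The labels do not say how long the dark treatment lasted, nor whether the replicates came from separate plants, and the p-values therefore cover only the variation among these libraries, which may be technical.

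Glucosinolates are defence compounds of cabbages and their relatives, and the indolic ones are made from tryptophan. In Arabidopsis, CYP81F enzymes are cytochrome P450 monooxygenases that hydroxylate the indole ring of indol-3-ylmethyl glucosinolate, CYP81F1 to CYP81F3 mainly at a ring carbon and CYP81F4 at the ring nitrogen. Methyltransferases then convert the hydroxylated products to methoxy forms, and the carbon-hydroxylated branch that needs CYP81F2 is known for its part in defence against fungi and aphids. These roles come from Arabidopsis. The sources used here do not say which of the 9 IDs corresponds to which of the Arabidopsis genes, so no single member is given a position of hydroxylation. The reference table of assembly CAAS_Brap_v3.01 paired none of the 9 IDs with a symbol. Of the symbols of the 19 other genes listed for the indolic pathway, 1 was in that table. None could be matched to an ID of the count tables, so these genes were not analysed. No markers of the seedling's tissues were given for this set, and none were analysed.

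Library totals ran from 48773088 to 71764062 counts. Levels are given as CPM, the counts of a gene scaled to the same total in each library, with the totals adjusted by edgeR's TMM factors. A count of 0 allows up to 3 counts, or 0.0419 to 0.0611 CPM depending on the library, for counting error only. Low counts were more often even than odd. Among features with 1 to 20 counts, 68.6% to 75.5% of values were even in the Chiifu libraries and 60.8% to 64.1% in the LP08 libraries, and above 20 counts, up to 200, the shares were 50.5% to 53.4%. The sources used here do not say whether both reads of a pair were counted. If they were, single counts are not independent, and the counting intervals and limits given here are too narrow. The highest share, 75.5%, was that of Chiifu dark replicate 3, a library on which some values below depend. Over all features, this library also differed more from its sister libraries than any other replicates of a group differed from each other. The part of the difference in even shares between the lines in the results below was not tested. Whole seedlings were sequenced, so fewer cells that express a gene and less RNA per cell cannot be told apart. The strand setting and the handling of reads that match several copies are not given, so reads of near-identical homologs could have been split or lost, and each single ID is uncertain to that extent. The build is not given either, so whether reads of both lines matched it equally well is not known. The part of this in the differences between the lines was not tested.

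Summed over the 9, the homologs had far more reads in LP08 than in Chiifu, and Bra011761 and Bra011762 supplied most of the LP08 reads. The sum does not speak for the other homologs, of which some were higher and some lower in LP08. The 9 together reached 71.0, 155 and 106 CPM in the dark LP08 libraries and 75.9, 75.4 and 72.4 CPM in the light ones. The dark Chiifu libraries had 10.9, 18.0 and 18.7 CPM, and the light Chiifu libraries had 9.93, 9.88 and 9.57 CPM. Every LP08 library was above every Chiifu library. The light LP08 libraries lay close together, at 74.5 ± 1.87 CPM (SD, n = 3), within the wide range of the dark ones at 110.8 ± 42.3 CPM (SD, n = 3). The means in Chiifu were 15.8 ± 4.29 CPM for dark and 9.80 ± 0.20 CPM for light seedlings (SD, n = 3 each), and the treatments did not overlap.

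The homolog with the largest share of those reads differed between the lines and, in LP08, between the treatments. In dark Chiifu, Bra011759 held 68.6 ± 7.28% of the family's counts and Bra002747 held 19.9 ± 6.77%. In light Chiifu the share of Bra011759 was 46.2 ± 4.31%, that of Bra002747 was 21.2 ± 4.60% and that of Bra011758 was 17.7 ± 5.20%. In dark LP08, Bra011761 held 68.6 ± 12.2% and Bra011762 held 23.1 ± 6.62%. In light LP08, Bra011762 held 83.5 ± 1.54%, whereas Bra011761 was down to 1.92 ± 1.44% (SD, n = 3 for each share). These are shares of counts and not of transcripts, since no gene lengths are available for the IDs, so only their change between groups is read.

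**Figure D1:**
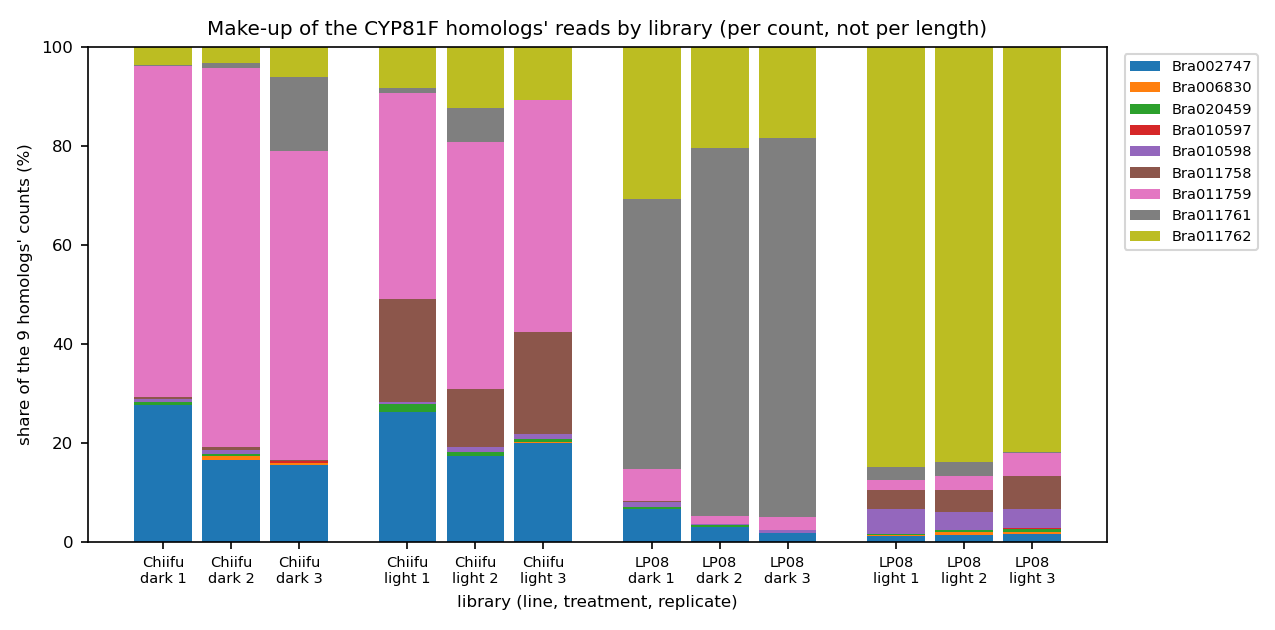
Share of the 9 homologs' summed counts (vertical axis, percent, per count and not per length) taken by each homolog in each of the 12 libraries, grouped by line and treatment. Bra011759 is the largest block in every Chiifu library, Bra011761 in every dark LP08 library and Bra011762 in every light LP08 library, where it held 81.9% to 84.9%.

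Bra011762 was the homolog with the most counts over all libraries, and it differed mainly between the lines. Light LP08 seedlings had 64.4, 63.1 and 59.3 CPM, and dark LP08 seedlings 21.8, 31.6 and 19.5 CPM. Light Chiifu seedlings had 0.814, 1.23 and 1.02 CPM, and dark Chiifu seedlings 0.396, 0.573 and 1.14 CPM. The 6 LP08 libraries lay far above the 6 Chiifu libraries, the LP08 treatments did not overlap, and the Chiifu treatments did. LP08 exceeded Chiifu by 61.0-fold in light (log2 difference 5.93, SE 0.34, edgeR adjusted p = 7.52e-08) and by 35.2-fold in the dark (log2 5.14, SE 0.34, adjusted p = 1.84e-07). It rose 2.57-fold with light in LP08 (log2 1.36, SE 0.27, adjusted p = 0.000756). In Chiifu the fitted log2 difference between light and dark was 0.57 (SE 0.33, adjusted p = 0.143). This comparison did not pass, an outcome that depended on Chiifu dark replicate 3, the highest dark Chiifu library. Without that library the value was 1.07 and passed (adjusted p = 0.00469). Over all alternatives the value ran from 0.28 to 1.07, with an adjusted p of up to 0.459. The light responses of the lines were not shown to differ (log2 0.79, SE 0.42, adjusted p = 0.183).

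Bra011761, whose ID number precedes that of Bra011762, was high in dark LP08 and at 2.80 CPM or less in the other 9 libraries. Dark LP08 had 38.8, 116 and 81.5 CPM, and light LP08 1.95, 2.20 and 0.190 CPM. In dark Chiifu the values were 0.0317, 0.206 and 2.80 CPM, and in light Chiifu 0.114, 0.670 and 0 CPM. The dark LP08 libraries were separate from the other 9 libraries, and those 9 overlapped across their groups. The gene was 54.2-fold lower in light than in dark LP08 (log2 difference -5.76, SE 1.29, edgeR adjusted p = 0.00209) and 81.6-fold higher in dark LP08 than in dark Chiifu (log2 6.35, SE 1.33, adjusted p = 0.00222). Replicates varied more for it than for the other homologs with many reads. The highest library was 88.5 times the lowest in dark Chiifu, where the lowest had 2 counts, 11.6 times in light LP08 and 2.98 times in dark LP08. Of its 156 counts in dark Chiifu, 140 came from replicate 3, and without that library the log2 difference from dark LP08 was 9.31 (adjusted p = 0.0012), against 5.75 without replicate 1 (adjusted p = 0.0071). The same library decided the fitted change with light in Chiifu, which was -1.86 with it (SE 1.40, adjusted p = 0.26) and 1.11 without it (adjusted p = 0.614). In light the lines did not pass the test (log2 2.45, SE 1.37, adjusted p = 0.166). Nor did the difference of the light responses (log2 -3.90, SE 1.87, adjusted p = 0.144), which was -6.86 without Chiifu dark replicate 3 (adjusted p = 0.0304) and -1.74 without Chiifu light replicate 2 (adjusted p = 0.724), the extremes over the 20 alternatives.

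The ratio of these consecutive IDs, chosen for description after the values were seen, turned over with light in LP08. There were 1.78, 3.67 and 4.19 counts of Bra011761 for each count of Bra011762 in the dark libraries, and 0.0303, 0.0348 and 0.0032 in the light libraries. In Chiifu the ratio ran from 0.08 to 2.46 in the dark and from 0 to 0.545 in light, and the treatments overlapped.

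**Figure D2:**
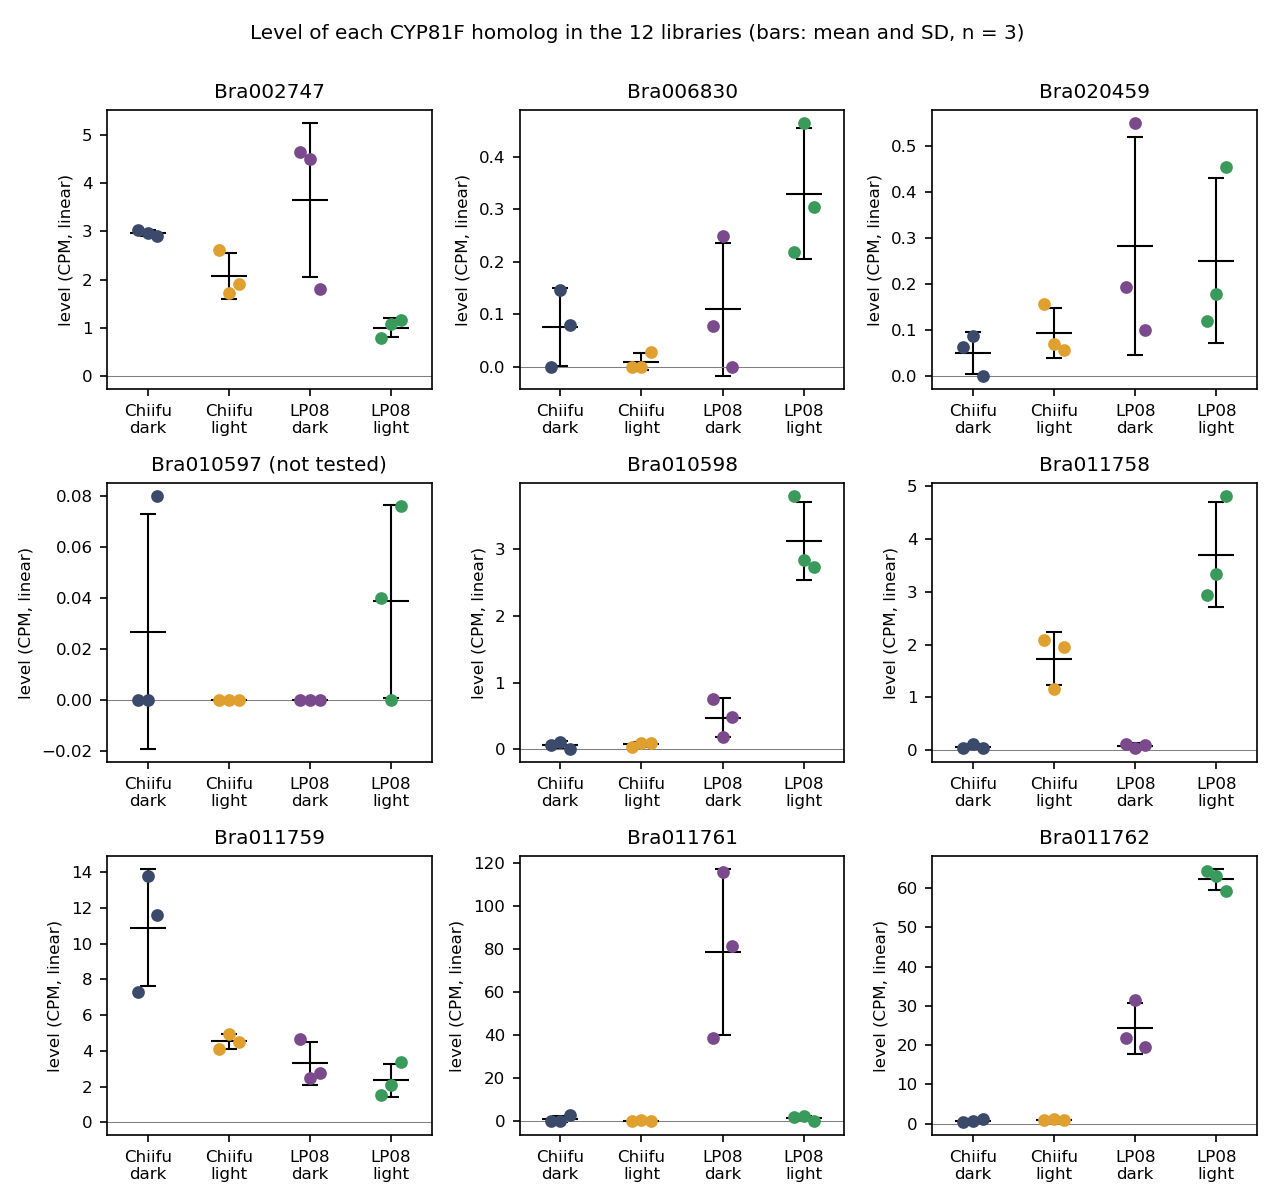
Level of each of the 9 homologs (vertical axes, CPM on a linear scale that differs between panels) in the 3 libraries of each group, with the mean (long bar) and SD (capped bar), some of which extend below 0. Bra011761 is high in dark LP08 (38.8 to 116 CPM), Bra011762 in both LP08 groups, Bra011758 in both light groups and Bra011759 in dark Chiifu.

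Bra011758 rose with light in both lines. Dark Chiifu libraries held 0.0317, 0.118 and 0.0400 CPM, from 12 counts in all, and dark LP08 libraries 0.117, 0.0356 and 0.102 CPM, from 13 counts. Light Chiifu libraries held 2.08, 1.16 and 1.96 CPM, and light LP08 libraries 2.93, 3.34 and 4.82 CPM. Light and dark did not overlap in either line, and in light the lines did not overlap either. The increase with light was 25.7-fold in Chiifu (log2 4.69, SE 0.49, edgeR adjusted p = 4.85e-06; 5.53 without dark replicate 2) and 43.2-fold in LP08 (log2 5.43, SE 0.49, adjusted p = 1.13e-06). The difference of these responses did not pass the test (log2 0.75, SE 0.76, adjusted p = 0.495). In light, LP08 was 2.13-fold above Chiifu (log2 1.09, SE 0.37, adjusted p = 0.028), a call lost without Chiifu light replicate 2 (adjusted p = 0.113) or 3 (0.0574) and without LP08 light replicate 2 (0.0536) or 3 (0.117). In the dark the log2 difference between the lines was 0.35 (SE 0.64, adjusted p = 0.672).

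Bra011759, the next ID, was highest in dark Chiifu and had its lowest mean in light LP08. Dark Chiifu had 7.30, 13.8 and 11.6 CPM, and light Chiifu 4.13, 4.94 and 4.51 CPM. Dark LP08 had 4.66, 2.47 and 2.75 CPM, and light LP08 1.55, 2.11 and 3.38 CPM. Dark Chiifu was above every other library, while the neighbouring groups below it overlapped. It fell 2.41-fold with light in Chiifu (log2 -1.27, SE 0.32, edgeR adjusted p = 0.0038). In LP08 the log2 change was -0.49 (SE 0.33, adjusted p = 0.204), and it ran from -0.85 without light replicate 3 (adjusted p = 0.0427) to -0.15 over the alternatives (highest adjusted p = 0.714). LP08 was lower than Chiifu by 3.31-fold in the dark (log2 -1.73, SE 0.33, adjusted p = 0.00084) and by 1.93-fold in light (log2 -0.95, SE 0.33, adjusted p = 0.0316). The call in light was lost without Chiifu light replicate 2 (adjusted p = 0.087) or 3 (0.0659) and without LP08 light replicate 1 (0.116) or 2 (0.0937). The responses of the lines were not shown to differ (log2 0.78, SE 0.45, adjusted p = 0.221).

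The ratio between these consecutive IDs, likewise chosen after the values were seen, rose with light in both lines. In LP08 only Bra011758 of this pair passed the test of light against dark. For each count of Bra011759 there were 0.00344 to 0.00854 counts of Bra011758 in dark Chiifu and 0.234 to 0.505 in light Chiifu. In LP08 there were 0.0144 to 0.0370 in the dark and 1.43 to 1.88 in light. Light was above dark in each line, and LP08 above Chiifu in each treatment, with no overlap of libraries. The dark ratios rest on 12 counts of Bra011758 in Chiifu and 13 in LP08. Its level in the dark was not shown to differ between the lines, whereas Bra011759 was lower in dark LP08.

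Bra010598 was higher in LP08 than in Chiifu under both treatments, and highest in light LP08. Light LP08 had 3.81, 2.84 and 2.73 CPM and dark LP08 0.760, 0.178 and 0.488 CPM. The Chiifu libraries held 0 to 8 counts each, 12 in all in the dark and 16 in light, or at most 0.118 CPM. The LP08 treatments did not overlap, and both lay above all Chiifu libraries. The gene was 40.3-fold higher in LP08 than in Chiifu in light (log2 5.33, SE 0.68, edgeR adjusted p = 5.38e-05) and 7.14-fold higher in the dark (log2 2.84, SE 0.71, adjusted p = 0.00538; 3.69 without Chiifu dark replicate 2). When only the dark groups were fitted, it did not pass the filter on low counts and was not tested. With at most 8 counts per Chiifu library, it passed the filter of the main fit through its LP08 libraries. With light it rose 6.58-fold in LP08 (log2 2.72, SE 0.57, adjusted p = 0.00107). The fitted change in Chiifu was 0.22 (SE 0.83, adjusted p = 0.828), at a level close to the counting floor. The difference of the responses was 2.49 (SE 1.04, adjusted p = 0.0908), and it passed without Chiifu dark replicate 3, which had no read (2.98, adjusted p = 0.0241), and with the DESeq2 test (2.55, adjusted p = 0.022). Without Chiifu dark replicate 2 it was 1.64 (adjusted p = 0.373). Bra010597, the preceding ID, had 10 counts in all 12 libraries, 4 of them in dark Chiifu replicate 3, 2 and 4 in light LP08 replicates 1 and 3, and none elsewhere. It was not tested. Its 6 counts in light LP08, scaled for depth, are 2.66 times a limit of 3 counts over the light Chiifu group, which had none. The limit covers counting error in light Chiifu only and not in the 6 counts, so 2.66 is not a lower bound.

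Bra002747 was measured in every library at moderate counts, from 40 to 253. Dark Chiifu was at 3.02, 2.97 and 2.90 CPM, and light Chiifu at 2.61, 1.72 and 1.90 CPM. Dark LP08 was at 4.64, 4.50 and 1.81 CPM, and light LP08 at 0.797, 1.07 and 1.16 CPM. Light was below dark without overlap in each line, and dark LP08 replicate 3 lay well below its sister libraries. In LP08 it fell 3.61-fold with light (log2 -1.85, SE 0.33, edgeR adjusted p = 0.000347). The change in Chiifu was -0.51 (SE 0.32, adjusted p = 0.171). The difference of the responses passed the test narrowly (log2 -1.34, SE 0.46, adjusted p = 0.0451), and without any 1 library other than LP08 dark replicate 3 its adjusted p was 0.0557 to 0.111. LP08 was 2.05-fold below Chiifu in light (log2 -1.04, SE 0.33, adjusted p = 0.0224), a call lost without Chiifu light replicate 1 (adjusted p = 0.0855) and without LP08 light replicate 1 (0.0828) or 2 (0.0502), and with limma-voom (0.06). In the dark the lines differed by 0.30 (SE 0.32, adjusted p = 0.443).

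Bra006830 and Bra020459 were close to the detection limit. Bra006830 had 11, 26 and 16 counts in light LP08, 4, 14 and 0 in dark LP08, 0, 10 and 4 in dark Chiifu, and 0, 0 and 2 in light Chiifu. Its light LP08 libraries were above all light Chiifu libraries. The pooled ratio of 53 to 2 counts, scaled for depth, was 35.3 (95% exact counting interval 9.30 to 299, if each count is an independent read). That interval pools the libraries and leaves out variation between them, so 9.30 is not a lower bound for the line difference. The fitted log2 difference was 4.84 (SE 1.31, edgeR adjusted p = 0.00954). Only the light LP08 libraries and dark LP08 replicate 2 held more than 10 counts. The gene thus passed the filter on low counts mainly through its highest group, and this p-value carries that limit. Without Chiifu light replicate 3, which held both light Chiifu counts, the log2 difference was 7.27 (adjusted p = 0.02). That value depends on the prior count because no read was then left in light Chiifu. Its other comparisons did not pass, with adjusted p from 0.0889 to 0.702. The lowest was that of the difference of responses (log2 4.31, SE 1.78), which was 5.76 without LP08 dark replicate 2 (adjusted p = 0.049) and ran from 3.28 to 6.73 over the alternatives (highest adjusted p = 0.258).

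Bra020459 had 10, 31 and 5 counts in dark LP08, 6, 10 and 24 in light LP08, 4, 6 and 0 in dark Chiifu, and 11, 5 and 4 in light Chiifu. In CPM the dark LP08 libraries, at 0.195, 0.552 and 0.102, were above the dark Chiifu libraries, whose highest was 0.0881. This was the single comparison that passed for it (log2 2.37, SE 0.89, edgeR adjusted p = 0.0404). Its highest levels were all in LP08 libraries, so it too could pass the filter mainly through LP08, and this p-value carries that limit. The call was lost without LP08 dark replicate 2, which held 31 of the 46 counts (1.44, adjusted p = 0.241), and kept without Chiifu dark replicate 2 (2.98, adjusted p = 0.0444). It was also lost without Chiifu dark replicate 1 (0.0836) or 3 (0.0881), and, with an adjusted p of 0.051 to 0.053, without Chiifu light replicate 2 or 3 or LP08 light replicate 2.

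**Figure D3:**
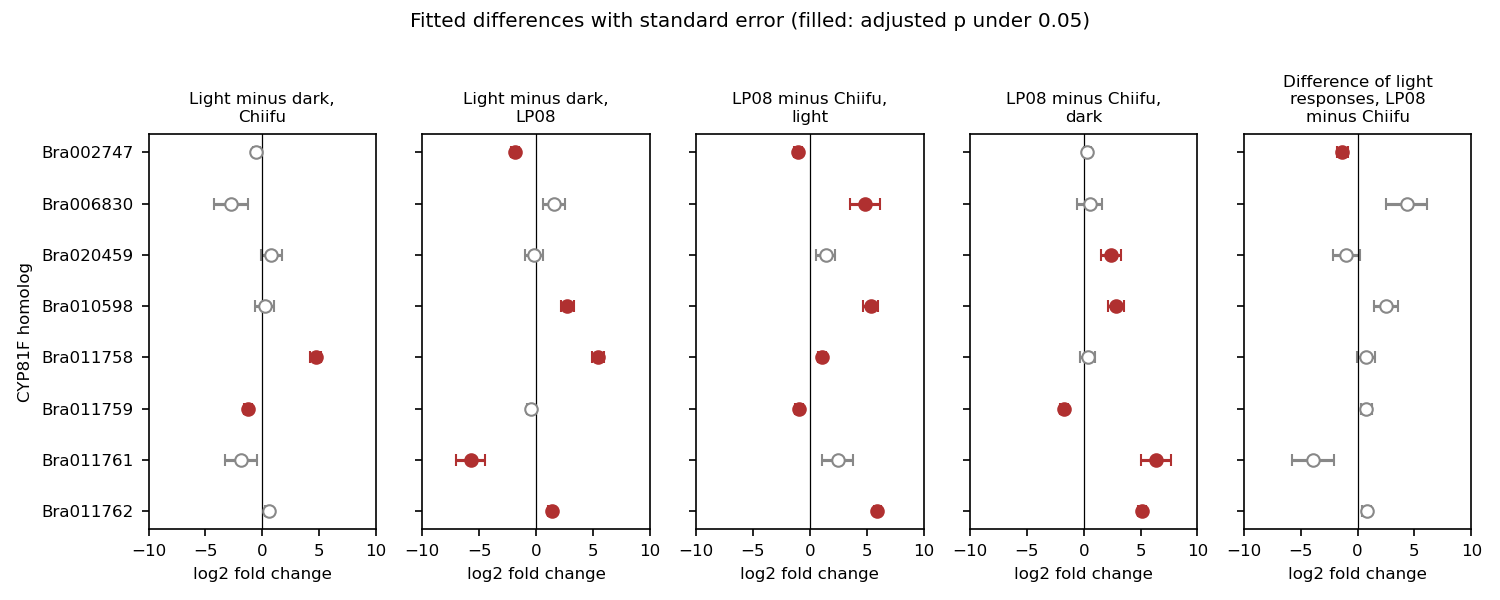
Fitted log2 fold change with its standard error for the 8 tested homologs (rows) in the 5 comparisons (panels), with filled red points where the adjusted p was under 0.05. Light against dark was called for 2 homologs in Chiifu and 5 in LP08, the line difference for 6 in light and 5 in dark, and the difference of light responses for 1.

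Read over the list, light split the homologs in both directions, as it did all tested features. In Chiifu, 1 of the 9 rose with light (Bra011758), 1 fell (Bra011759), 6 did not pass and 1 was not tested, where 67.5% of all tested features were called, 33.9% higher and 33.6% lower. In LP08, 3 rose (Bra010598, Bra011758, Bra011762), 2 fell (Bra002747, Bra011761), 3 did not pass and 1 was not tested, where 68.5% were called, 33.1% higher and 35.4% lower. The median log2 change of the 8 tested homologs was -0.14 in Chiifu and 0.59 in LP08, against 0.00 and -0.04 over all tested features. The median size of the change, without its sign, was 1.03 and 1.70, against 0.96 and 1.05. Libraries of light and dark did not overlap for 3 of the 8 in Chiifu and 5 in LP08, against 70.3% and 75.9% of all tested features.

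Between the lines, more homologs were higher than lower in LP08. In light, 4 were higher (Bra006830, Bra010598, Bra011758, Bra011762), 2 were lower (Bra002747, Bra011759) and 2 did not pass, against 46.4% of all tested features called, 21.4% higher and 25% lower. In the dark, 4 were higher (Bra010598, Bra011761, Bra011762, Bra020459), 1 was lower (Bra011759) and 3 did not pass, against 53.3% called, 25.4% higher and 27.9% lower. The median log2 difference of the 8 was 1.92 in light and 1.45 in the dark, against -0.02 and 0.00 over all tested features, and the median size was 1.92 and 2.05 against 0.55 and 0.66. Libraries of the lines did not overlap for 6 of the 8 in light and 5 in the dark, against 64.6% and 57.7%. Bra010598 and Bra011762 were higher and Bra011759 lower in LP08 under both treatments. A homolog with few reads could pass the filter through its highest group alone, so these counts describe the 8 and support nothing about the family. The test of the difference of responses called 1 of 8 homologs (Bra002747), lower in LP08, against 29.2% of all tested features called, 14.8% higher and 14.4% lower, and 3 of the 8 had an unadjusted p under 0.05.

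**Figure D4:**
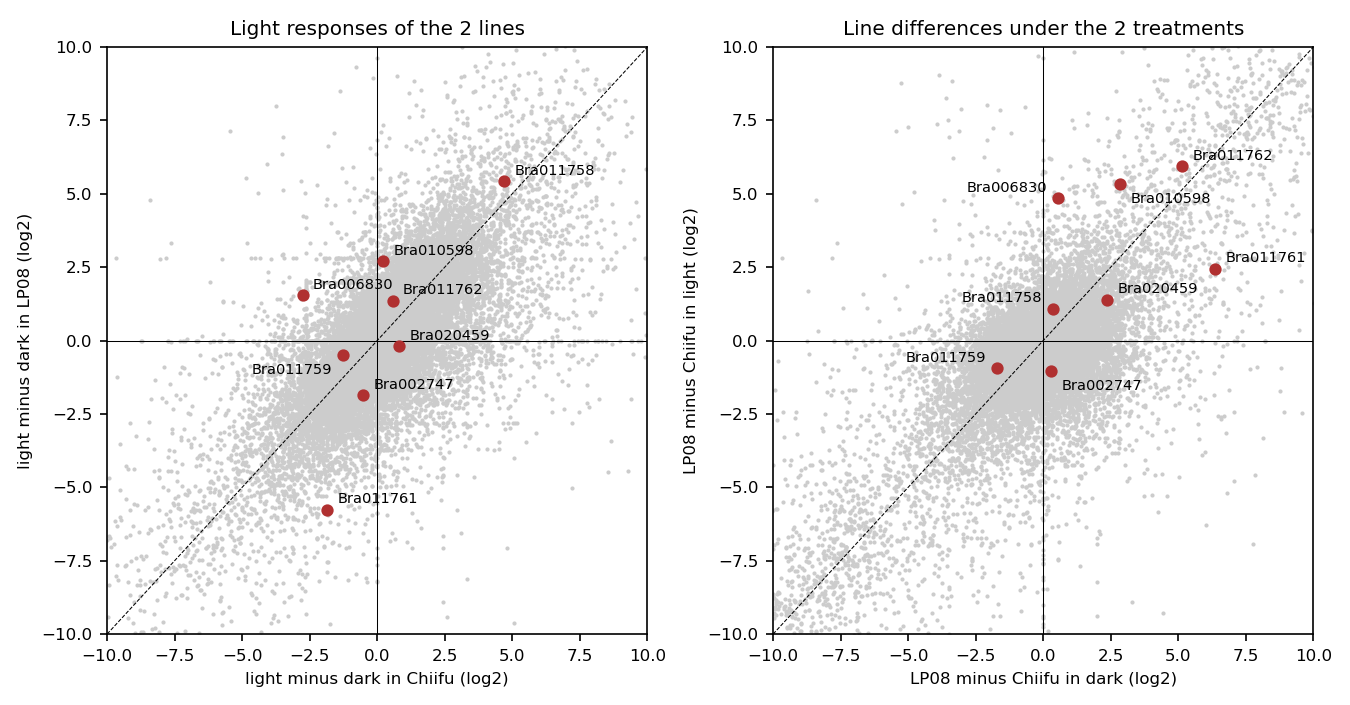
Fitted log2 fold changes of the 8 tested homologs (red) among all tested features (grey), with light against dark in Chiifu and LP08 (left) and LP08 against Chiifu in dark and light (right). The dashed line marks equal changes, and 111 and 472 features lie beyond the axis limits of 10. Bra011758 lies near the line at the upper right of the left panel, and Bra011762 near it in the right panel.

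The homologs did not share one pattern across the 12 libraries. Likeness was measured as the root mean square difference of log2(CPM + 0.5) after subtracting each gene's mean, so a smaller value means a closer pattern. The closest homologs by rank were Bra006830 and Bra020459, both near the detection limit, at 0.28, and Bra006830 was only the 512th nearest of 31238 other tested features to Bra020459. Bra010598 was the nearest homolog to Bra011762, at 1.65 and rank 576, while Bra011761 ranked 16158th for it. The features outside the list with the pattern nearest to that of Bra011762 over the 12 libraries were Bra040257, at 0.25, and Bra027880, at 0.41. Bra040257 was at 31.8 ± 1.94 CPM in light LP08, 14.1 ± 0.61 in dark LP08, 0.360 ± 0.082 in light Chiifu and 0.104 ± 0.050 in dark Chiifu (SD, n = 3). Bra027880 was at 44.3 ± 10.7, 8.71 ± 0.78, 0.216 ± 0.213 and 0.132 ± 0.068 CPM in the same groups. The libraries share line and treatment, so likeness over them follows mainly the group means, and the sources used here give no name for either ID.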

How the data were processed

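RNA from whole seedlings was isolated with a Qiagen RNeasy kit, cleared of DNA with DNase I and turned into TruSeq Stranded mRNA libraries, per the labels' protocols. The authors deposited raw read counts per feature, 1 table per library. FastQC, TopHat2, featureCounts and edgeR appear in the submitters' processing notes, with neither version nor role. Build, annotation and strand setting are not stated there. The counts were fitted with edgeR 4.0.16 (R 4.3.3), using filterByExpr by group (minimum count 10, minimum total 15), TMM scaling, group means over all 12 libraries and a robust quasi-likelihood F-test. P-values were adjusted by Benjamini-Hochberg over all 31239 tested features, and a homolog was called at an adjusted p under 0.05. Standard errors are those implied by the F statistic. The steps were tested on simulated data. Replicates of a group always differed by more than counting noise (chi-square per degree of freedom at least 13.7). The largest values were those of Chiifu dark replicate 3 against replicates 1 and 2 of its group, at 136 and 186. All other pairs were at 68.5 or less. The homologs were listed by their homology and not by a value, but this list and the other choices were made with earlier results of these data known. The named genes are all 9 homologs and the 2 features with the pattern nearest to that of the homolog with the most counts. Alternatives were other scalings, filters and tests (DESeq2 1.42.0, limma 3.58.1), a fit of only the groups compared, a replicate block, leaving out each library and, added after seeing the data, halved counts.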

Additional observations from a re-analysis of the deposited data

Results flagged for a closer look

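The light response of Bra002747 differed between the lines by the test of the difference itself, with a log2 difference (LP08 minus Chiifu) of -1.34 (edgeR adjusted p = 0.0451). All 3 light libraries were below all 3 dark libraries in each line, so the direction was the same and the test concerns the size. Such separation, in either direction, held for 70.3% of all tested features in Chiifu and 75.9% in LP08. The call was kept in 5 of 20 alternatives and lost in 15, with the same sign in all 20, a range of -1.66 to -1.13 and adjusted p from 0.0053 to 0.111.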

How the results depend on the processing

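For single homologs, 805 values were recomputed, of which 753 kept their direction and their side of the threshold, 36 lost the call, 6 gained one and 10 changed sign. All 10 sign changes were in comparisons that had not passed the test. For Bra006830 between the lines in the dark the log2 values were -0.05 and -0.91 (without Chiifu dark replicate 1 or LP08 dark replicate 2), within a range over left-out libraries of -0.91 to 1.55. For Bra010598 with light in Chiifu they were -0.26 and -0.02 (without Chiifu dark or light replicate 3), within -0.26 to 1.08. For Bra011758 in the difference of responses it was -0.10 (without Chiifu dark replicate 2), within -0.10 to 1.08. For Bra011761 with light in Chiifu it was 1.11 (without Chiifu dark replicate 3), within -4.02 to 1.11. For Bra020459 with light in LP08 it was 0.022 with a replicate block, and 0.75, 0.14 and 0.0048 without LP08 dark replicate 2, LP08 light replicate 1 or LP08 light replicate 2, within -0.93 to 0.75. The cause was not tested. The number of homologs called was 2 to 3 with light in Chiifu, 5 to 6 with light in LP08, 4 to 5 between the lines in the dark and 3 to 6 in light over the left-out libraries, the lowest without LP08 light replicate 2. It was 3 in the dark when only those groups were fitted, where 4 homologs were tested. Bra010598 and Bra020459, called there in the main fit, were then not tested. For the difference of responses it was 0 to 2 over the left-out libraries. It was 0 with DESeq2 size factors, limma-voom, no filter or the replicate block, and 2 with the DESeq2 test. In all 13 alternatives with 0 calls, 1 to 4 homologs had an unadjusted p under 0.05. With every count halved, chosen after seeing the even counts, 6 homologs were tested and 1 to 5 were called. Library totals in place of TMM moved the median log2 change of all features to -0.24 with light in LP08, -0.19 between the lines in light and -0.10 with light in Chiifu, and ended the call of Bra011758 between the lines in light (0.91, adjusted p = 0.0583). They set the summed level in light LP08 at 66.6 CPM. Over the left-out libraries the summed level was 73.7 to 76.5 CPM in light LP08, 88.4 to 130.2 in dark LP08, 9.69 to 9.93 in light Chiifu and 14.4 to 18.2 in dark Chiifu.

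Libraries with the same replicate number in different groups form 18 pairs. Their deviations from the group mean correlated at -0.25 to 0.30, above 0.1 in 8 pairs, which does not decide whether they are paired. The samples were not treated as paired because nothing says that a replicate number marks a shared culture or day. The fit with the replicate block called 2 homologs with light in Chiifu, 5 with light in LP08, 6 between the lines in light, 4 in the dark and 0 for the difference of responses. It ended the calls of Bra020459 in the dark (2.33, adjusted p = 0.0691; 0.0501 with no filter) and Bra002747 for the difference (-1.27, adjusted p = 0.0753). At these depths 3 homologs had few counts over all libraries (87 for Bra006830, 116 for Bra020459 and 10 for Bra010597), and small differences were not detectable.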
